A study of Homo sapiens with 6 samples.

Results

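The sialyltransferases that act on the Tn and T antigens were examined in AGS, a cell line from a human gastric adenocarcinoma. Cells had received nontargeting siRNA (si-Control) or the siRNA si-C1GALT1-3 against C1GALT1, and RNA was taken 48 h later. Each group had 3 samples with 1 one-colour Agilent array per sample, and each group rests on a single siRNA. The genes are ST6GALNAC1 to ST6GALNAC6 and ST3GAL1 to ST3GAL4, 10 in all, and they were found by matching the RefSeq accession of each probe to the gene. They carried 13 of the 58193 probes tested, and they are 10 of 22438 genes with a symbol. ST3GAL3 had 3 probes, ST6GALNAC3 had 2 and each other gene had 1.

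Mucin-type O-glycans start with a single GalNAc on serine or threonine, the Tn antigen. C1GALT1 adds galactose to it and makes the T antigen, and both can be capped with sialic acid, which stops further extension. The ST6GALNAC enzymes attach sialic acid to the GalNAc, giving sialyl-Tn or, when the T antigen is already sialylated, disialyl-T. The ST3GAL enzymes attach it to the galactose, giving sialyl-T. Sialyl-Tn is known as a tumour-associated antigen of gastric and other carcinomas, and ST6GALNAC1 is its main synthase. C1GALT1 and ST6GALNAC1 therefore compete for the same acceptor. Lowering C1GALT1 thus raises the question of whether transcripts of the capping enzymes differ as well.

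The arrays differed in ways that touch these genes. On si-Control replicate 2, a rectangle of 9712 gene spots, 15.9% of all, had low signals, with a median log2 deviation of -2.19 from the other si-Control arrays against -0.06 outside it. Those spots were set to missing on that array. The share of gene spots well above background was 66.2% to 72.7%, which limits what can be said of dim probes, and no gene spot was saturated. Arrays with the same replicate number shared a slide, with si-Control always in one position and si-C1GALT1-3 in the next, so position and treatment cannot be told apart. Nothing states that the 3 samples came from separate cultures, so p-values measure the spread between these samples, which may be technical. Probes of the epithelial markers KRT8, KRT18, KRT19, EPCAM and CLDN4 were well above background on all 6 arrays. The log2 of their summed signal was 18.4 to 19.2 in si-C1GALT1-3 cells and 18.7 to 19.3 in si-Control cells. None of the 9 genes listed as markers of blood cells, fibroblasts or endothelium passed the threshold on its brightest probe. The brightest probes of PTPRC, CD3E and CD14 were nevertheless well above background on every array. The log2 of the summed signal was 13.6 to 13.8 in si-C1GALT1-3 against 13.7 to 14.4 in si-Control for blood markers. In the same order, it was 9.76 to 10.55 against 8.41 to 9.88 for COL3A1 and DCN of fibroblasts. For PECAM1 and CDH5 of endothelium it was 7.21 to 7.58 against 7.43 to 8.23. A dimmer PTPRC probe (A_33_P3364821) rose past the threshold given below, with a log2 fold change of 1.90, and another that passed (A_33_P3364811) was well above background on none of the si-Control arrays. COL1A1 and VWF lack si-Control replicate 2 on their brightest probes and were left out of these sums. Among the fibroblast markers the log2 fold change was 1.17 for COL3A1, -0.70 for DCN, which was not well above background in si-Control, and -0.05 for COL1A1. VWF had -1.03 on its brightest probe, with groups that did not overlap, and 0.45 on another. Their part in the results was not tested.

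C1GALT1 (probe A_23_P252145), the targeted gene, read 12.22, 13.03 and 12.62 in si-Control replicates 1, 2 and 3 on the normalized log2 scale, and 11.76, 11.98 and 11.13 in si-C1GALT1-3. All si-C1GALT1-3 arrays lay below all si-Control arrays. The difference of the group means, the log2 fold change, was -1.0 (standard error 0.31), with an adjusted p of 0.265 in limma (Benjamini-Hochberg over the whole array), short of an unadjusted p under 0.01.

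Of the 13 probes of the sialyltransferases, 1 passed limma's moderated test at an unadjusted p under 0.01 with a change of at least 2-fold, the threshold used throughout. Over all probes tested that share was 2.64%, with 1.65% higher and 0.992% lower, and 1538 probes called in all. Read from the brightest probe of each gene, 0 of the 10 genes passed, against 3.41% of all genes. By that same reading 1 gene had an unadjusted p under 0.05 in limma, against 16.6% of all genes. Student's t-test, which the study's methods name outside the array analysis, also called 0. The median log2 fold change of the 10 genes was 0.17, with 6 higher and 4 lower, beside a median of 0.02 over all genes with a symbol. Over the 13 probes it was -0.02, with 6 higher and 7 lower, beside -0.0047 over all probes. Groups did not overlap for 2 of the 13 probes, against 21.5% of all probes. In RNA of whole cultures, fewer cells that express a gene and less RNA per cell cannot be told apart. Unadjusted p was under 0.05 for 2 of the 13 probes, against 13.8% of all probes. The lowest adjusted p among these probes was 0.191 in limma, so 0 of the 13 were under 0.05, and over the whole array 49 probes (0.0842%) were. Each of these probes was well above background on every array that was kept for it.

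**Figure D1:**
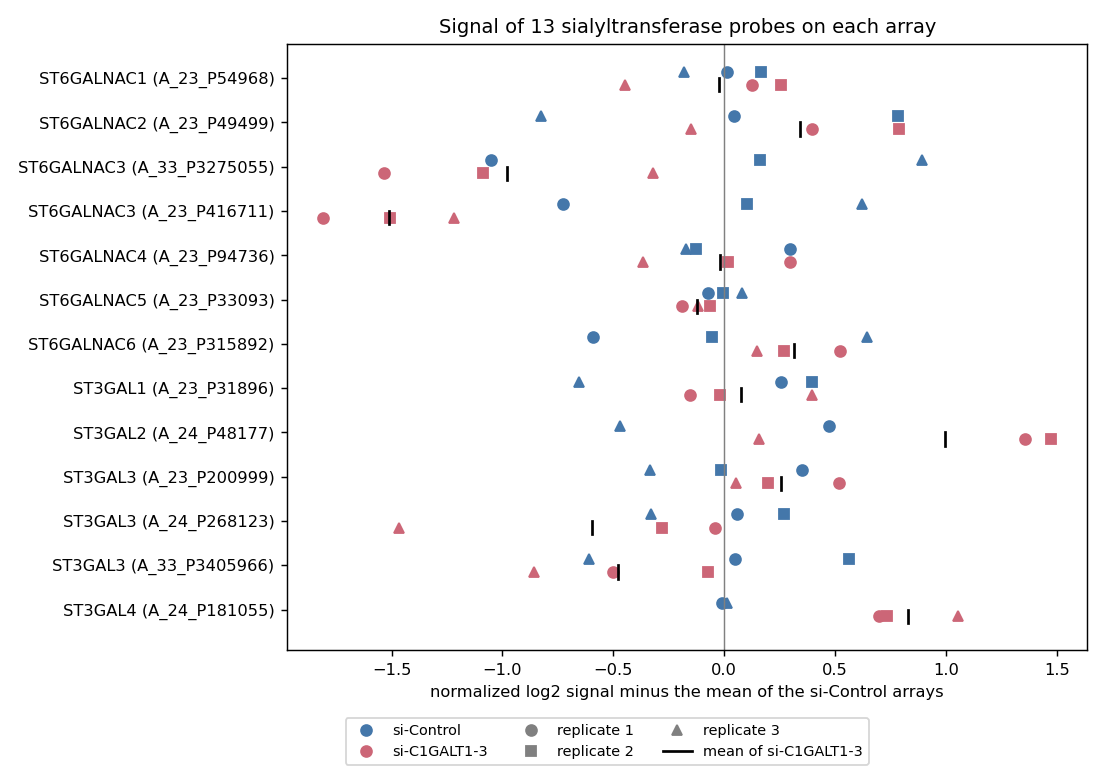
Normalized log2 signal of each of the 13 probes on each array, as the difference from the mean of the si-Control arrays of that probe (horizontal axis). Blue symbols are si-Control and red symbols si-C1GALT1-3, the symbol shape is the replicate, and the black bar is the mean of the 3 si-C1GALT1-3 arrays. Only ST6GALNAC3 (A_23_P416711) and ST3GAL4 have groups that do not overlap, and 2 probes lack si-Control replicate 2.

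ST6GALNAC3, which adds sialic acid to the GalNAc of an already sialylated T antigen and of certain glycolipids, had the only probe past the threshold. That probe (A_23_P416711, for NM_152996) read 10.46, 11.29 and 11.81 in si-Control and 9.38, 9.68 and 9.97 in si-C1GALT1-3. Every si-C1GALT1-3 array lay below the lowest si-Control array. Its log2 fold change was -1.51 (standard error 0.38, 95% interval -2.44 to -0.58, adjusted p = 0.196 from limma). Within slides 1, 2 and 3 the difference was -1.08, -1.61 and -1.84, so it was lower on all 3. With the replicate as a block the standard error was 0.20 and the probe still passed. The call was lost without si-C1GALT1-3 replicate 1, 2 or 3 and without si-Control replicate 2 or 3. The log2 fold change in those fits ranged from -1.65 to -1.19. Each of them had 1 array fewer to test with, so the loss does not show that the call rested on any 1 array. The call held without si-Control replicate 1, at -1.89.

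The other ST6GALNAC3 probe (A_33_P3275055, for NM_001160011) was the brighter of the pair and is the one read for the gene. It read 11.05, 12.27 and 12.996 in si-Control and 10.57, 11.02 and 11.78 in si-C1GALT1-3, and the groups overlapped. Its log2 fold change was -0.98 (standard error 0.57, 95% interval -2.39 to 0.43, adjusted p = 0.515 from limma). Within slides 1, 2 and 3 the difference was -0.48, -1.25 and -1.21. With the replicate as a block the standard error was 0.22 (unadjusted p = 0.014 in limma), and this probe still did not pass. Both probes were thus lower on every slide, and they differ in whether the test was passed. The difference between the 2 probes was not tested. In si-Control cells both probes were lowest on replicate 1 and highest on replicate 3, and the same order was seen among the si-C1GALT1-3 arrays.

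**Figure D2:**
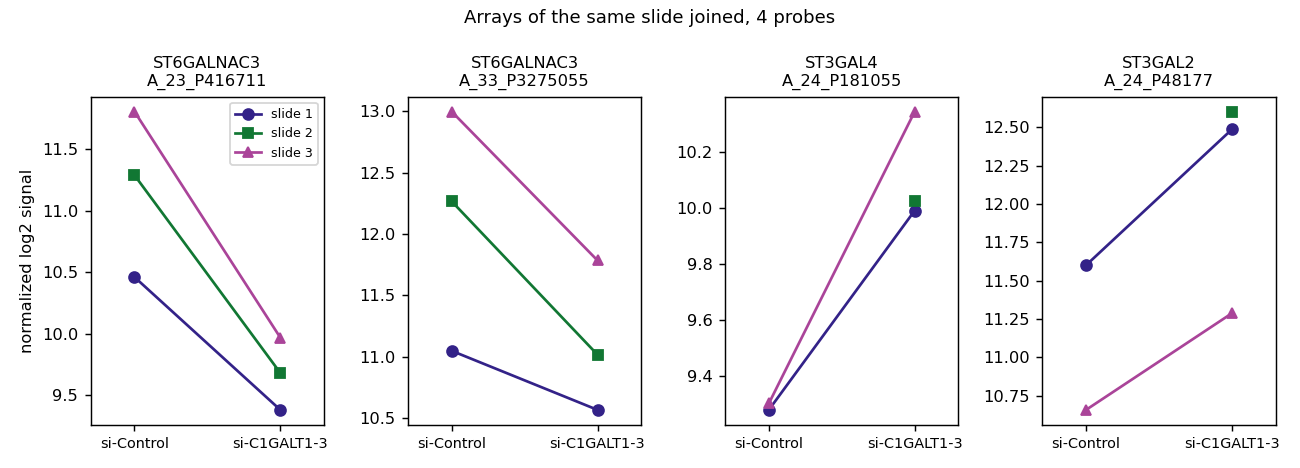
Normalized log2 signal (vertical axis, scaled separately for each probe) of 4 probes in si-Control and si-C1GALT1-3, with arrays of the same slide joined by a line. Both ST6GALNAC3 probes go down on all 3 slides, and ST3GAL4 and ST3GAL2 go up on slides 1 and 3, where slide 2 has no si-Control value.

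ST6GALNAC3 and ST6GALNAC5 are next to each other on chromosome 1, with 0 protein-coding genes between them. ST6GALNAC4 and ST6GALNAC6 are likewise neighbours on chromosome 9, and ST6GALNAC1 and ST6GALNAC2 lie on chromosome 17 with 1 gene model between them. ST6GALNAC5, best known for acting on brain gangliosides, read 7.94, 8.01 and 8.09 in si-Control and 7.82, 7.95 and 7.89 in si-C1GALT1-3. These arrays overlapped and the spread was small. Between the group means lay a log2 fold change of -0.12, with a 95% interval from -0.43 to 0.18, which leaves out a 2-fold change in either direction. The promoters of these 2 neighbours are shown because 1 of the 2 ST6GALNAC3 probes, both lower on every slide, passed the threshold while the interval of ST6GALNAC5 holds only small changes. Each runs from 250 bases before to 50 bases after the start (RefSeq, GRCh38.p14), ST6GALNAC3 at chr1:76074496-76074795 and ST6GALNAC5 at chr1:76867230-76867529, both on the plus strand, with GC boxes in capitals.
ST6GALNAC3: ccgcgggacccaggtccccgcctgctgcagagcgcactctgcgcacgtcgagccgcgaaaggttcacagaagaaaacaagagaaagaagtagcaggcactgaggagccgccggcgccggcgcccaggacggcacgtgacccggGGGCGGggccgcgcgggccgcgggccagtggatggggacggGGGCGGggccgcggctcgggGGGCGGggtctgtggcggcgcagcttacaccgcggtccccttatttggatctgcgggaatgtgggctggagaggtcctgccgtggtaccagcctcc
ST6GALNAC5: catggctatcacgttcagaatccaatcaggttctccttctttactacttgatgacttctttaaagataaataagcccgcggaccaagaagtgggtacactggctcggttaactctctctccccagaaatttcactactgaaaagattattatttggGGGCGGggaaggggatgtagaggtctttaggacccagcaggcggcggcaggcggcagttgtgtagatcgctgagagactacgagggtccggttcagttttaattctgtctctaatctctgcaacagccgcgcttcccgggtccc
The GC box GGGCGG, searched on both strands, is found 3 times in the ST6GALNAC3 promoter and 1 time in that of ST6GALNAC5. Of the 35116 promoters of the same length that were searched, 45.0% hold at least 1. The search covered 10 promoters of 6 of the 10 genes (ST6GALNAC3, ST6GALNAC4, ST6GALNAC5, ST6GALNAC6, ST3GAL3 and ST3GAL4), and 9 of these promoters had a GC box. No promoter was searched for the rest of the 10 genes. The TATA box TATAAA, also searched on both strands, was in 0 of the 10 promoters and in 11.5% of all promoters searched. These letters do not overlap those of the GC box.

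ST6GALNAC1, the sialyl-Tn synthase (A_23_P54968), read 9.32, 9.47 and 9.12 in si-Control and 9.43, 9.56 and 8.86 in si-C1GALT1-3. The groups overlapped fully, and replicate 3 was the lowest array of both. Between the groups the log2 fold change was -0.02, with a 95% interval from -0.59 to 0.55 (standard error 0.23, adjusted p = 0.991 from limma). A 2-fold change of this transcript lies outside that interval. Within slides 1, 2 and 3 the difference was 0.11, 0.09 and -0.27.

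ST6GALNAC2 (A_23_P49499), which sialylates the GalNAc of Tn and T antigens, varied more than ST6GALNAC1. It read 7.77, 8.51 and 6.90 in si-Control and 8.12, 8.51 and 7.57 in si-C1GALT1-3. This gave a log2 fold change of 0.34 with a 95% interval from -0.81 to 1.49, and a 2-fold rise lies inside that interval. Replicate 2 was highest and replicate 3 lowest in both groups.

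ST6GALNAC4 (A_23_P94736), another enzyme of disialyl-T, read 12.19, 11.77 and 11.72 in si-Control and 12.19, 11.91 and 11.53 in si-C1GALT1-3. The log2 fold change was -0.02 with a 95% interval from -0.59 to 0.56, and the arrays of the 2 groups overlapped. ST6GALNAC6 (A_23_P315892), which uses mainly glycolipids, read 9.14, 9.68 and 10.38 in si-Control and 10.25, 10.00 and 9.88 in si-C1GALT1-3. Its log2 fold change was 0.31 (95% interval -0.51 to 1.14), and the difference within slides was 1.11, 0.32 and -0.50. It was thus higher on slides 1 and 2 and lower on slide 3, and the neighbouring gene ST6GALNAC4 differed by -0.002, 0.15 and -0.19 on the same slides.

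ST3GAL1 and ST3GAL2 cap the galactose of the T antigen. ST3GAL1 (A_23_P31896) read 8.11, 8.25 and 7.20 in si-Control and 7.69, 7.83 and 8.25 in si-C1GALT1-3. The log2 fold change was 0.08 (95% interval -0.74 to 0.89, adjusted p = 0.962 from limma), and the within-slide differences of -0.41, -0.41 and 1.05 did not share a direction.

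ST3GAL2 (A_24_P48177) lies in the rectangle of low signals, so its value rests on 2 si-Control arrays. It read 11.60 and 10.66 in si-Control replicates 1 and 3, and 12.49, 12.60 and 11.29 in si-C1GALT1-3. Replicate 3 of si-C1GALT1-3 lay below si-Control replicate 1, so the groups overlapped. Its log2 fold change was 0.997 (95% interval -0.40 to 2.39, standard error 0.53, adjusted p = 0.494 from limma). The differences within slides 1 and 3 were 0.89 and 0.63. With the replicate as a block, where slide 2 has no pair, the log2 fold change was 0.76 (standard error 0.17), which did not pass. With no spot of the rectangle masked, which changes the normalization of all arrays, si-Control replicate 2 had 10.05. The log2 fold change was then 1.35, which did not pass either. Without si-Control replicate 1, where si-Control is the single array 3 and is assumed to vary like the other group, it was 1.47, and without si-Control replicate 3 it was 0.52.

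ST3GAL3 and ST3GAL4 sialylate mainly the galactose of lactosamine chains, a step towards sialyl Lewis antigens. ST3GAL4 (A_24_P181055) also lies in the rectangle and has 2 si-Control arrays. It read 9.28 and 9.30 in si-Control replicates 1 and 3, and 9.99, 10.03 and 10.34 in si-C1GALT1-3. All 3 si-C1GALT1-3 arrays lay above both si-Control arrays. That is a log2 fold change of 0.83 (standard error 0.18, 95% interval 0.35 to 1.31, adjusted p = 0.191 from limma), which was under p of 0.01 and short of 2-fold. The differences within slides 1 and 3 were 0.71 and 1.04. With no spot of the rectangle masked, and the arrays normalized with those spots, si-Control replicate 2 had 7.75. The log2 fold change was then 1.33, which did not pass p under 0.01. With each array left out the log2 fold change was between 0.72 and 0.89, but p was under 0.01 only without si-Control replicate 2, where the probe is masked already. It was over 0.01 in the other 5 of these fits, of which those without si-Control replicate 1 or 3 rest on a single si-Control array, assumed to vary like the other group, and also with the replicate as a block.

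The 3 probes of ST3GAL3, all annotated with NM_174963, disagreed in sign. The brightest (A_23_P200999) read 10.24, 9.87 and 9.55 in si-Control and 10.41, 10.09 and 9.94 in si-C1GALT1-3, with a log2 fold change of 0.26 (95% interval -0.32 to 0.83). It was higher on all 3 slides, by 0.17, 0.21 and 0.39. A_24_P268123 had a log2 fold change of -0.60 (95% interval -1.62 to 0.42), and its si-C1GALT1-3 arrays ran from 6.42 to 7.84 against 7.55 to 8.16 in si-Control. A_33_P3405966 had -0.48 (95% interval -1.37 to 0.41) and, like A_24_P268123, was lower on all 3 slides. None of these probes passed the threshold, so the direction of ST3GAL3 depends on the probe.

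By the largest absolute moderated statistic on the brightest probes, ST3GAL4 and ST3GAL2 were the genes whose closest profiles were looked up, over the 5 arrays each has. The plan named members well above background on all 6 arrays, and the arrays kept for a probe were counted instead. Likeness was the root mean square difference between log2 deviations from each gene's own mean, among 14780 genes well above background on all 6 arrays. UBE2A (0.057) and PLEKHM1 (0.066) were closest to ST3GAL4, and GMDS-DT (0.037) and PROX1 (0.049) to ST3GAL2. For ST6GALNAC3 (A_23_P416711), chosen after its values were seen, CD83 (0.13) and SOAT1 (0.18) were closest over 6 arrays. Each likeness rests on these few arrays and was given no test.

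Enzymes that supply and remove sialic acid were read from a list of 13 genes, chosen with earlier results of these data known. After si-C1GALT1-3, 11 of them were higher and 2 lower, while 52.4% of all genes with a symbol were higher. Their median log2 fold change was 0.37, beside 0.02 over all genes with a symbol. The 2 that were lower, NANP and NEU2, were not well above background on all arrays of either group, and nor was NEU4 among the 11 that were higher. On their brightest probes 1 rose past the threshold and 0 fell, against 3.41% of all genes in either direction, and groups did not overlap for 6 of the 13, against 25.3% of all genes. SLC17A5, the lysosomal carrier that exports free sialic acid, was the gene that rose. Its brightest probe (A_33_P3416321) read 11.72, 11.99 and 11.85 in si-Control and 13.27, 13.10 and 13.37 in si-C1GALT1-3. The groups were far apart relative to their spread. The log2 fold change was 1.39, with a standard error of 0.15 and an adjusted p of 0.069 in limma, and it passed under each of the 18 alternatives, between 1.19 and 1.48. The second SLC17A5 probe (A_33_P3265270) had 0.99 (standard error 0.22), just short of 2-fold.

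Other genes of that list did not pass. The log2 fold change of GNE, the first enzyme of sialic acid synthesis, was 0.63 (standard error 0.18) on 2 si-Control arrays. CMAS, which activates sialic acid to CMP-sialic acid, had 0.49 (standard error 0.17), and SLC35A1, which carries CMP-sialic acid into the Golgi, had 0.37 (standard error 0.20) on 2 si-Control arrays. NEU1, the lysosomal sialidase, had 0.96 (standard error 0.37), from signals of 10.48, 11.24 and 11.89 in si-Control and 12.11, 11.97 and 12.42 in si-C1GALT1-3. GNE, CMAS, SLC35A1 and NEU1 were named after their values were seen, and on their brightest probes the groups did not overlap. A second SLC35A1 probe (A_33_P3394710), with all 3 si-Control arrays, had 0.21 (standard error 0.18), and its groups overlapped. NEU4 also had groups that did not overlap, but it was above background only on 1 si-C1GALT1-3 array, so no fold is given for it.

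Among 10 other sialyltransferases, which mainly use N-glycans, glycolipids or sialic acid itself, 0 passed in either direction, 3 were higher and 7 lower, and the median log2 fold change was -0.19. Over all genes 3.41% passed. Unadjusted p was under 0.05 for 3 of the 10 in limma, against 16.6% of all genes. Groups did not overlap for 5 of the 10, against 25.3% of all genes. These include ST8SIA2, which was well above background on no array. ST3GAL5, which makes the ganglioside GM3, had the largest positive log2 fold change, 1.38 (standard error 0.41), which did not pass. Only 1 of the 3 si-Control arrays measured it well above background. ST8SIA3 had the largest negative log2 fold change among genes well above background on all arrays of a group, -0.76 (standard error 0.21). Among enzymes that share the O-GalNAc acceptor or its products, 7 of 8 had a probe and 0 of the 7 passed, against 3.41% of all genes. Unadjusted p was under 0.05 in limma for 1 of the 7, C1GALT1, against 16.6% of all genes. The largest positive log2 fold change there was 0.56 (standard error 0.34) for B3GNT3, which extends the T antigen with GlcNAc. C1GALT1C1, the chaperone COSMC that C1GALT1 needs, had 0.27 (standard error 0.17), and C1GALT1 itself had the largest negative value.

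**Figure D3:**
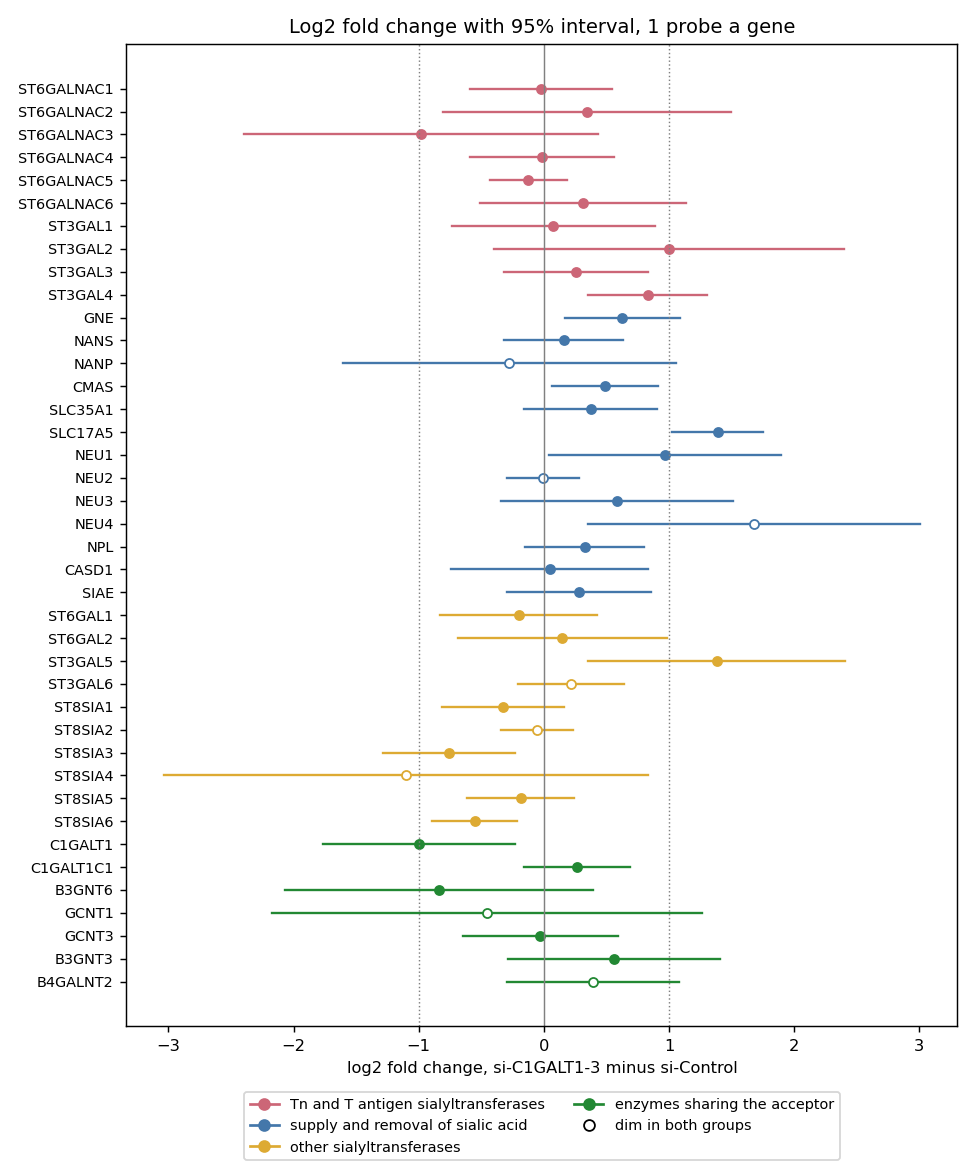
Log2 fold change of si-C1GALT1-3 against si-Control (horizontal axis) with its 95% interval from limma, for the brightest probe of each gene. Colours mark the 4 groups of genes, open circles are genes not well above background on every kept array of either group, and dotted lines mark 2-fold. The interval of SLC17A5 lies above 2-fold from 1.03 to 1.75, and that of ST6GALNAC5 is the narrowest among the Tn and T antigen sialyltransferases.

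**Figure D4:**
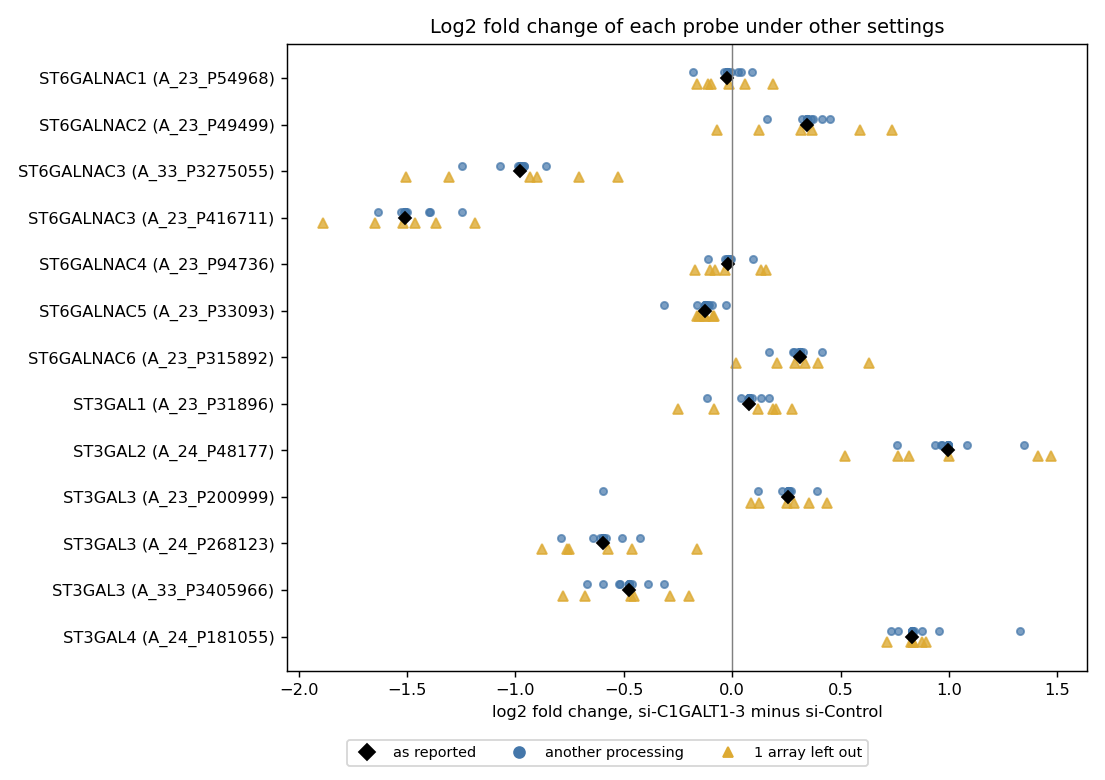
Log2 fold change of each of the 13 probes (horizontal axis) as reported (black diamonds), under another processing (blue circles) and with 1 array left out (yellow triangles). Both ST6GALNAC3 probes stay below 0 and ST3GAL2 and ST3GAL4 stay above 0 in all 18 alternatives, and ST6GALNAC1, ST6GALNAC4 and ST3GAL1 lie on both sides of 0.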

How the data were processed

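Total RNA of 6 AGS samples was measured on one-colour Agilent arrays. The authors deposited fluorescence intensity for each spot from Agilent Feature Extraction version 10.5.1.1. Its processed signal is corrected for background and spatial trends within the array, with no normalization between arrays. A deposited table of the series holds background-subtracted intensity. Quantile normalization and limma are named in the study's methods for the arrays. Student's t-test is named there for other comparisons between groups, and it is called the methods' t-test here.

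Here, control spots were dropped, and spots marked as non-uniform or population outliers, 100 to 424 per array, were set to missing. Spots in lines 113 to 288 and columns 59 to 115 of si-Control replicate 2 were masked. Log2 signals were quantile normalized, spots of a probe averaged, and groups compared with limma version 3.58.1 in R version 4.3.3, with Benjamini-Hochberg adjustment over all probes. The test was tested on simulated data with independent noise on each array. That simulation did not cover shared slides or probes with masked spots. Symbols came from RefSeq accessions (GRCh38.p14), which named 31104 of 58201 probes. The arrays use another build, so the only coordinates given are those of the RefSeq promoters, on their own build. Each gene was represented by its brightest probe (highest mean log2 signal). Genes named are the 10 sialyltransferases, C1GALT1, list genes past the threshold, and each list's largest rise and fall among genes well above background on all arrays of a group, besides markers, genes with the closest profiles, C1GALT1C1 and genes said to be named after their values were seen. The members and lists were chosen with earlier results of these data known. The 3 arrays per group limit the precision. Alternatives were no mask, a mask wider by 5 spots, the 75th percentile, no normalization, normexp (offset 50, on the median spot signal, in place of the planned mean signal, which was not used here), leaving dim probes out, the methods' t-test, a replicate block, a robust prior with trend, flagged spots kept, the series table with a floor of 10, a median of each gene's probes, and each array left out. Arrays sharing a slide deviated together from their group means, with correlations of 0.198, 0.215 and 0.329. The scanner files place both on 1 slide, so replicate numbers were taken as pairs.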

Additional observations from a re-analysis of the deposited data

How the results depend on the processing

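The count of the 10 sialyltransferase genes past the threshold was 0 in all 18 alternatives. With the replicate as a block, C1GALT1 had a log2 fold change of -1.0 with an adjusted p of 0.230 (0.151 to 0.801 over its 18 alternatives), and the block changed no call of C1GALT1, SLC17A5 or the 13 sialyltransferase probes at the threshold and no list's count. The number of probes past the threshold, 1538 with 62.5% higher, was 915 with normexp, 896 with the methods' t-test and 797 genes with the median over probes, and 1126 to 1781 with each array left out. Of those called, 40.2% were higher with no mask and 72.6% with no normalization. The 75th percentile moved the median log2 fold change of all probes from -0.0047 to -0.11. The 49 probes with an adjusted p under 0.05 had their smallest at 0.0499, and the count ran from 0 (replicate block, among others) to 545 (without dim probes), with 429 under normexp. The sialic acid list had 2 genes past the threshold with the 75th percentile and 3 with no normalization, and 1 to 2 when arrays were left out in turn (2 when either replicate 3 was removed). The other sialyltransferases had 1 without dim probes, and 0 to 1 with each array left out (ST3GAL5, without si-Control replicate 2). The acceptor-sharing list had 1 without dim probes, where C1GALT1 passed at -1.0. ST6GALNAC3 (A_23_P416711) no longer passed with the methods' t-test (-1.51), the series table (-1.51) or the median over its probes (-1.25). Small changes turned sign. ST6GALNAC1 had 0.092 with no normalization, 0.040 with normexp and 0.026 with the series table, and -0.16 to 0.19 with each array left out. ST6GALNAC4 had 0.096 with no normalization and -0.17 to 0.16 with each array left out. ST3GAL1 had -0.11 with no mask and -0.25 to 0.27 with each array left out, and ST6GALNAC2 had -0.069 (without si-Control replicate 3) to 0.74. ST3GAL3 (A_23_P200999) had -0.60 with the median over its probes. The cause was not tested.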
